A study of Mus musculus with 2 samples.

Results

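Carbonic anhydrases are zinc enzymes that interconvert carbon dioxide and water with bicarbonate and a proton. In the kidney, the cell-surface and cytosolic forms together allow the proximal tubule to reclaim filtered bicarbonate, and the cytosolic form of intercalated cells feeds protons to the pumps of the collecting duct. A few relatives have lost the zinc site and do not work as enzymes. The 10 genes described here are *Car2*, *Car3*, *Car4*, *Car5b*, *Car8*, *Car11*, *Car12*, *Car13*, *Car14* and *Car15*. They were taken by symbol, whatever their values, and all 10 had a row among the 19829 genes of the normalized table. The family genes *Car5a*, *Car7* and *Car9* also had rows and are given beside them, whereas *Car1*, *Car6* and *Car10* were not analysed here.

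Whole-kidney mRNA was sequenced from wild-type (WT) mice and from mice that overexpress *Inmt*, an enzyme of indole breakdown, in proximal tubules (Tg), with 1 library per genotype. The libraries are called WT+AKI and TG+AKI, and AKI stands for acute kidney injury. Both genotypes were male C57BL/6 mice that, per the study's methods, received the calcineurin inhibitor voclosporin intraperitoneally at 30 mg/kg/day from 8 to 10 weeks of age. Bilateral ischemia of 30 min followed by reperfusion (I/R) was applied at 14 weeks, and the left kidney was taken. Descriptions of the interval between reperfusion and sampling differ, at 24 or 48 h. Littermates served as controls, and the promoter that drives the transgene is not given in the sources used here. The sample labels disagree with this in part, since the treatment field of both samples names no treatment and the title of the transgenic sample also calls it a conditional knockout.

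*Inmt* was examined first. Its normalized value was 10.4 in the WT+AKI library, from 443 reads, against 403 in the TG+AKI library, from 13339 reads, which is the direction that the transgenic label gives. WT+AKI held 38542764 reads, each worth a value of 0.0236, and TG+AKI held 36427421, each worth 0.0302. In every pair of values below, WT+AKI comes first. Defining kidney genes were present. *Umod*, the urinary protein of the thick ascending limb, stood at 1427 and 1921, and *Lrp2*, the proximal endocytic receptor megalin, at 644 and 2754. All 7 tubular injury markers were at least 2-fold lower in TG+AKI, *Havcr1* (KIM-1) among them at 1169 and 2.78. All differences below are between 2 libraries. No spread between animals could be measured, and intervals in brackets are 95% exact (Clopper-Pearson) intervals on reads, which cover counting error only. In whole-kidney RNA, fewer cells of a type and less RNA per cell cannot be told apart.

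The comparison took in the 10294 genes that reached a normalized value of 10 in either library, 8 of the 10 members among them. *Car8* and *Car11* stayed below this level. The rule for a call was a 2-fold difference or more after taking log2(value + 1), on which scale the change of low genes comes out too small. Of the 8 members, 4 were called higher in TG+AKI (*Car3*, *Car14*, *Car4* and *Car12*), against 5.74% of all compared genes. Only *Car13* was called lower, against 7.12% of all compared genes. The remaining *Car2*, *Car15* and *Car5b* were not called. The median log2 fold change was 0.84 over the 8 members and 0.01 over all compared genes. Of all called genes, 44.6% were higher, and this share was 24.9% with the column totals made equal, where the median of all genes shifted by -0.27, and 33.9% with a median ratio of 1 among well-expressed genes, where it shifted by -0.14. An exact binomial test on reads, which sets one library against the other and says nothing of genotypes, called 80.5% of all genes and all 8 compared members.

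**Figure D1:**
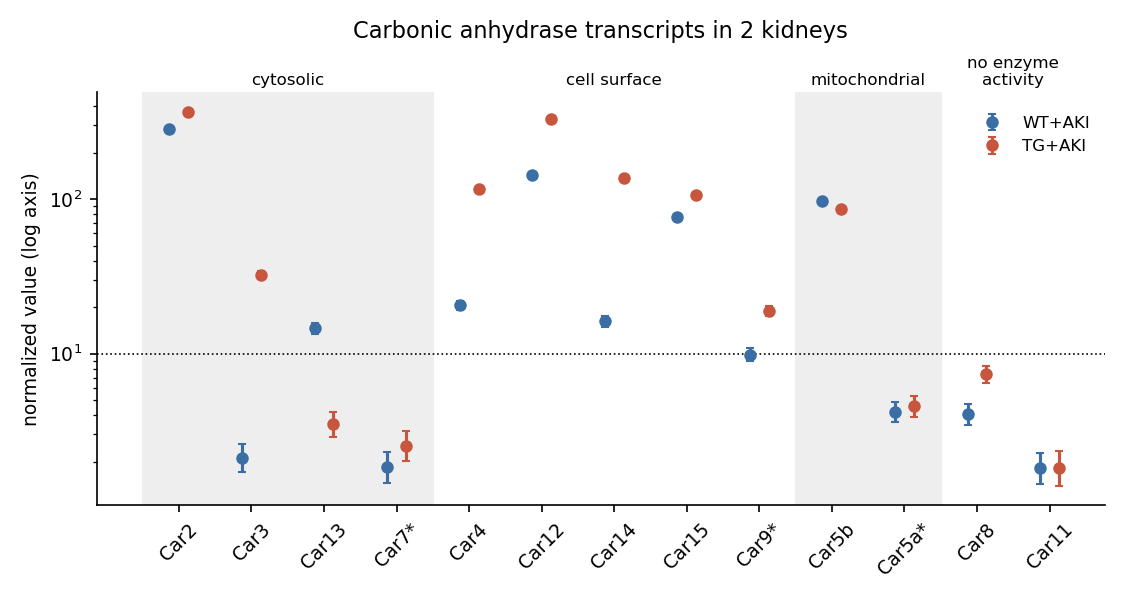
Normalized value (log axis) of the 13 listed carbonic anhydrases in WT+AKI and TG+AKI, 1 library each, grouped by the place of the protein in the cell. Bars are 95% Poisson intervals of the reads (counting error only), the dotted line is the level of 10 used for comparison, and asterisks mark family genes that are not among the 10 members. *Car4* and *Car14* stand far apart between the libraries, whereas *Car2*, *Car15* and *Car5b* stand close together.

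All 4 cell-surface members had higher values in TG+AKI. *Car14* encodes a transmembrane enzyme whose catalytic domain faces the outside of the cell and which is known from proximal tubules. Its values were 16.1 (684 reads) and 137 (4545 reads). The ratio was 8.51 [7.85 to 9.23], and its log2 fold change of 3.01 was the 32nd highest of the 10294 compared genes. *Car4* encodes the lipid-anchored enzyme of the tubular brush border, where it acts on filtered bicarbonate. It stood at 20.6 (873 reads) and 116 (3858 reads), a ratio of 5.66 [5.26 to 6.10] and the 56th highest log2 fold change at 2.44. The intervals of *Car14* and *Car4* did not overlap, so that the ratio of *Car14* exceeded that of *Car4* beyond counting error. Both genes were called higher under every pseudocount and scaling tried.

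*Car12*, a transmembrane enzyme known from distal and collecting duct epithelium, was the most read of the cell-surface forms. Its values were 144 (6100 reads) and 332 (10990 reads), a ratio of 2.31 [2.24 to 2.38] and a log2 fold change of 1.20. With equal column totals the ratio was 1.91 and the log2 fold change 0.93, so that *Car12* was no longer called. *Car15*, a lipid-anchored form that mice have and humans lack, stood at 76.4 and 107, a ratio of 1.39 [1.33 to 1.46]. The smallest ratio of the cell-surface members was thus that of *Car15*. Its level is uncertain. In the annotation, 64.2% of the 100-base words of its transcript also occur in *Gm20518*, a gene on the same strand that shares 1253 exon bases with it and had no row. *Car9*, the transmembrane form known as a target of hypoxia-inducible factors (HIF), stood at 9.84 and 18.9, a ratio of 1.92 [1.70 to 2.18], and was not called.

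**Figure D2:**
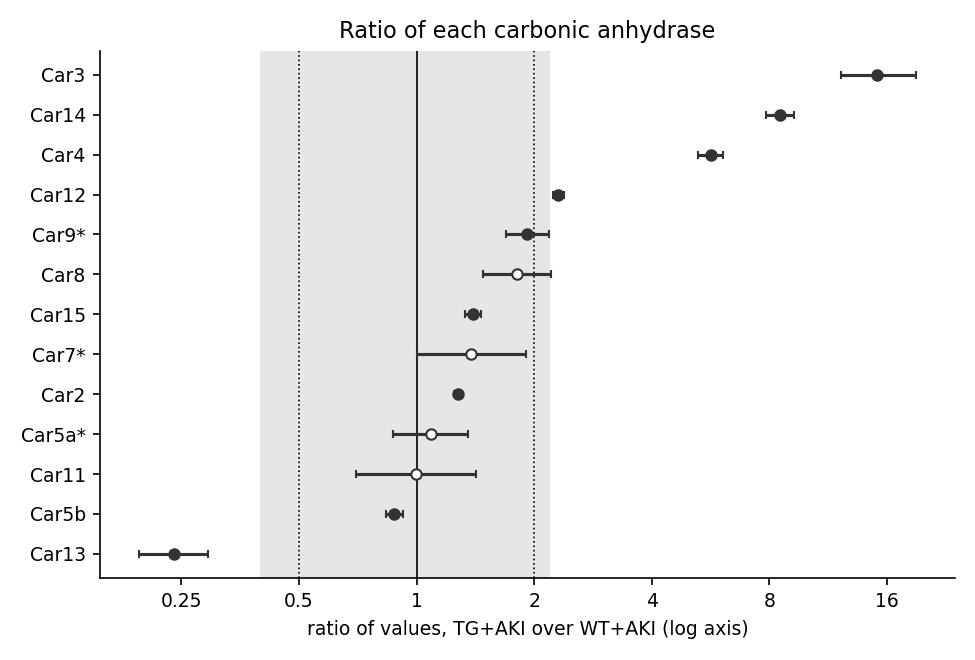
Ratio of the normalized values, TG+AKI over WT+AKI (log axis), for the 13 listed carbonic anhydrases, with 95% exact intervals on reads (counting error only). Filled points passed the level of 10, open points did not, asterisks mark genes that are not among the 10 members, dotted lines stand at 2-fold, and the grey band holds the ratios of all compared genes from percentile 5 to 95. *Car3*, *Car14*, *Car4* and *Car12* lie right of the band and *Car13* lies left of it.

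The 3 cytosolic members did not move together. *Car2*, the fast and widespread cytosolic enzyme, which is most abundant in intercalated cells, had the highest value of the family in both libraries. Its values were 285 (12093 reads) and 364 (12048 reads), a ratio of 1.28 [1.24 to 1.31] that became 1.05 with equal column totals. *Car3*, a cytosolic form of low enzyme activity known from muscle, fat and liver, showed the largest ratio of the family. It stood at 2.12 (90 reads) and 32.1 (1063 reads), a ratio of 15.1 [12.2 to 19.0] and the 20th highest log2 fold change of all compared genes at 3.41. The low WT+AKI value makes this size depend on the pseudocount, and the log2 fold change was 1.80 with a pseudocount of 10. *Car13*, a cytosolic form of broad distribution, went the other way. It stood at 14.6 (619 reads) and 3.50 (116 reads), which made it 4.17-fold lower [3.41 to 5.13] in the transgenic kidney, with a log2 fold change of -1.79 that was the 272nd lowest of all compared genes. With a pseudocount of 10 its log2 fold change was -0.87 and it was not called. *Car7*, which was read little, stood at 1.84 and 2.54.

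Genes of fat, muscle and red blood cells were placed beside the cytosolic forms, because these cells are known for them. Of 12 adipocyte markers, 5 had a row, and the defining *Adipoq*, *Plin1*, *Lep*, *Cfd* and *Retn*, as well as *Cidea* and *Ucp1*, had none. The summed value of the 5 was 105 and 59.7, opposite in direction to *Car3*. Of these, *Plin4*, a lipid droplet coat protein, stood at 23.5 and 3.38 and was called lower. *Cidec*, another lipid droplet protein, stood at 5.66 and 0.181, *Fabp4* at 49.3 and 36.9, *Lipe* at 25.0 and 17.8, and *Pparg* at 1.34 and 1.51. Of 10 skeletal muscle markers only *Mylpf* had a row, at 0.826 (35 reads) and 0.634 (21 reads). The fat and muscle markers that had a row were thus lower or near equal where *Car3* was 15.1-fold higher. A marker read in only 1 of the libraries would have no row, and the part of these cells in the *Car3* values was not tested. Red cell genes were near 0 beside *Car2*, with *Hba-a1* at 0.660 and 1.39, *Hba-a2* at 0.613 and 0.996, *Hbb-bs* at 1.08 and 1.99, *Hbb-bt* at 0.236 and 0.876, *Alas2* at 0.0943 and 0.211, and *Epb42* at 0.943 and 1.06. *Slc25a37*, an iron carrier that other cells use too, stood at 71.8 and 48.5.

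The mitochondrial enzyme *Car5b*, which supplies bicarbonate to biosynthetic reactions of the matrix, was slightly lower in TG+AKI. It stood at 97.8 (4146 reads) and 85.9 (2844 reads), a ratio of 0.878 [0.837 to 0.921]. This direction held under every scaling tried, with ratios between 0.726 and 0.888. Its liver-type relative *Car5a* stood at 4.20 and 4.56, a ratio of 1.09 [0.868 to 1.36] whose interval included 1, and the ratio was below 1 both with equal column totals (0.898) and after centring well-expressed genes on a median ratio of 1 (0.983).

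Both relatives without enzyme activity were read little. *Car8*, which binds the inositol trisphosphate receptor, stood at 4.06 (172 reads) and 7.34 (243 reads), a ratio of 1.81 [1.48 to 2.21]. *Car11*, a secreted form, stood at 1.82 (77 reads) and 1.81 (60 reads), a ratio of 0.998 [0.700 to 1.42]. *Car11* was the only member whose interval included 1, and at this depth a difference of up to 1.42-fold could not be seen. When every gene with a value of at least 1 was compared, neither gene was called.

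Levels of different genes were compared per kilobase of their longest annotated transcript. In WT+AKI the order of this level was *Car2* (159.5), *Car15* (59.6), *Car12* (38.7), *Car5b* (28.5), *Car4* (16.4), *Car14* (9.44), *Car13* (6.35), *Car3* (1.26), *Car11* (1.15) and *Car8* (1.05). The counting intervals of the last 3 overlapped, and the other neighbours were separate. In TG+AKI the order was *Car2* (203), *Car4* (92.8), *Car12* (89.3), *Car15* (83.1), *Car14* (80.3), *Car5b* (25.0), *Car3* (19.1), *Car8* (1.90), *Car13* (1.52) and *Car11* (1.14). Here *Car4* and *Car12*, *Car15* and *Car14*, *Car8* and *Car13*, and *Car13* and *Car11* overlapped. Per kilobase, *Car2* exceeded *Car4* 9.73-fold in the wild-type and 2.19-fold in the transgenic kidney. It exceeded *Car14* 16.9-fold and 2.53-fold. *Car3* was at 0.199 of the level of *Car13* in the wild-type kidney and 12.5-fold above it in the transgenic one. The 4 cell-surface members, which spanned 9.44 to 59.6 in the wild-type kidney, thus lay between 80.3 and 92.8 in the transgenic kidney. This narrow range depended on the length used, since with the mean length of the coding transcripts they lay between 83.1 and 125. It also rests on the uncertain level of *Car15*.

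Summed over the 10 members, the level per kilobase was 322 in the wild-type and 598 in the transgenic kidney. The cell-surface members made up 38.6% and 57.8% of this sum, and their own sum was 124 and 345, 2.78-fold higher. The cytosolic members made up 51.9% and 37.5%, with sums of 167 and 224, and *Car2* dominated them in both libraries. *Car5b* made up 8.84% and 4.18%, and *Car8* and *Car11* together 0.683% and 0.510%. These shares do not depend on the scaling between libraries. With the mean length of the coding transcripts, the cell-surface share was 34.5% and 54.8% and the cytosolic share 58.3% and 41.6%. With either length, the larger class was the cytosolic one in WT+AKI and the cell-surface one in TG+AKI. The cell-surface sums include 59.6 and 83.1 from *Car15*, whose level is uncertain because of the words it shares with *Gm20518*. How far the sums, the shares and the order of the classes depend on that level was not tested.

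**Figure D3:**
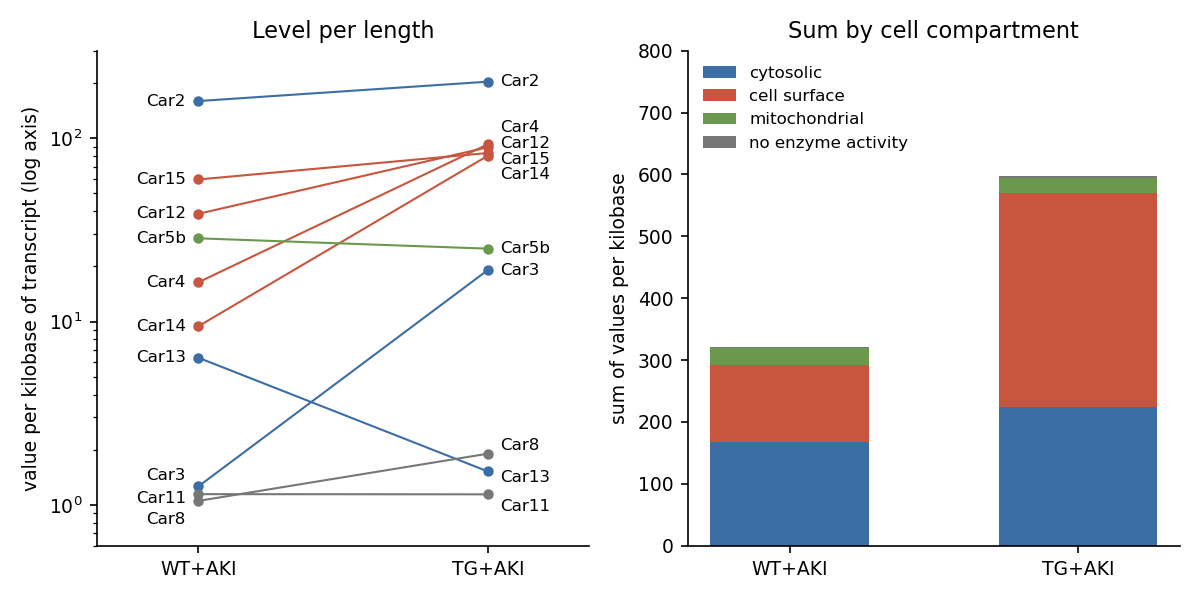
Left, normalized value per kilobase of the longest transcript (log axis) of the 10 members in WT+AKI and TG+AKI, with lines joining the 2 libraries. Right, the same levels summed by the place of the protein in the cell, with colors as in the legend for both panels. The cell-surface part of the bar, which includes the uncertain level of *Car15*, grows from 124 to 345, and *Car3* and *Car13* cross.

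In the genome (GRCm38, which is mm10, with positions from GENCODE M21), the 3 cytosolic members are neighbours on chromosome 3. *Car13* lies at 14641727 to 14663002, *Car3* at 14863512 to 14872523 and *Car2* at 14886273 to 14900770, all on the plus strand. Only 13749 bases separate *Car3* and *Car2*, and the whole cluster, which also holds *Car1*, spans 259044 bases. Within it, *Car13* was lower, *Car3* higher and *Car2* not called. *Car14* lies farther along chromosome 3 at 95897768 to 95904691, on the minus strand. Its exons share 445 bases (17.5% of its exon bases) with *Aph1a* on the opposite strand. *Aph1a*, a subunit of gamma-secretase, stood at 76.9 and 111, a ratio of 1.45 [1.38 to 1.52] against 8.51 for *Car14*. Whether the counting used the strand is not given in the sources used here, so how reads of these shared bases were counted is not known. *Car4* lies on chromosome 11 at 84957786 to 84966044, *Car12* on chromosome 9 at 66713686 to 66766845, *Car15* on chromosome 16 at 17835276 to 17838364 and *Car5b* on chromosome X at 163976822 to 164027997. *Car8* lies on chromosome 4 at 8143362 to 8239041 and *Car11* on chromosome 7 at 45699843 to 45704682. Apart from *Car15*, no listed family gene shared a 100-base word of its longest transcript with another annotated gene.

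Promoters of 6 of the 10 members, from 250 bases before to 50 after the start of transcription, were found in RefSeq (GRCm38.p6). They were searched on both strands for ACGTG, the core motif of HIF binding. Those of *Car2*, *Car3*, *Car8* and *Car13* were not found and so were not searched. The motif was chosen after the values had been seen, because *Car9* and *Car12* are known HIF targets. It occurred in 19.6% of all 32851 promoters, and among the 6 members searched only in those of *Car14* and *Car4*. *Car9* held it too, and *Car12* did not. The stretches from 50 bases before to 20 after the start are shown for these 3 genes, with the motif in capitals as its reverse complement. The *Car14* stretch is at chr3:95904666-95904735 (minus strand), that of *Car4* at chr11:84957704-84957773 (plus strand) and that of *Car9* at chr4:43506976-43507045 (plus strand).
Car14: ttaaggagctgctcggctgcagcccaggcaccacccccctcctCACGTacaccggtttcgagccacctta
Car4: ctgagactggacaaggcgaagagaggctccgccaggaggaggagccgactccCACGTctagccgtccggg
Car9: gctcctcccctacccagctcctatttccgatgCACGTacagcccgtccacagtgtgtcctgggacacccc
A match describes these letters and is no evidence of binding. Of 12 HIF targets in a list, 11 were compared, 2 were called higher (*Vegfa* at 129 and 286, *Ndrg1* at 1491 and 3377) and 2 lower (*Adm* at 22.9 and 4.53, *Pfkfb3* at 32.5 and 13.9), with a median log2 fold change of -0.10.

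The transporters that work with carbonic anhydrases in the proximal tubule had higher values in TG+AKI. All 7 genes of this list had ratios above 1 and 3 were called, with a median log2 fold change of 0.83. *Slc4a4*, the basolateral exit path of bicarbonate, stood at 866 and 1471 (ratio 1.70). *Slc9a3*, the apical sodium-proton exchanger, stood at 86.6 and 155 (ratio 1.79), and its scaffold *Slc9a3r1* at 201 and 269 (ratio 1.34). *Slc9a8*, a further exchanger of that family, was called higher at 38.7 and 115 (ratio 2.96). The phosphate carrier *Slc34a1* (764 and 5397, ratio 7.06) and the glucose carrier *Slc5a2* (236 and 545, ratio 2.30) were called higher. The ratios of *Car14* and *Car4* thus lay above those of the bicarbonate and proton carriers, and on either side of that of *Slc34a1*.

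**Figure D4:**
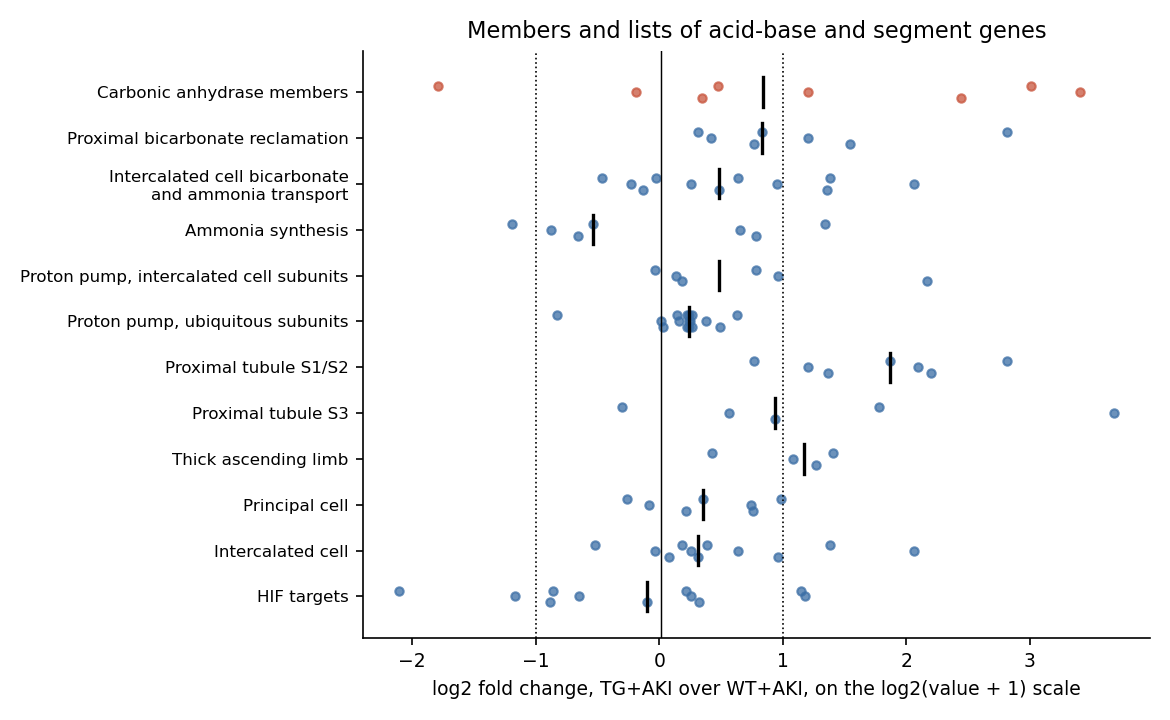
Log2 fold change (TG+AKI over WT+AKI) on the log2(value + 1) scale for the compared carbonic anhydrase members and for lists of acid-base genes, segment markers and HIF targets. Each point is a gene, thick bars are list medians, the thin line is the median of all compared genes and dotted lines stand at 2-fold. The members range from -1.79 to 3.41, with a median of 0.84.

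Most proximal tubule markers had higher values in TG+AKI, as *Car4* and *Car14* did, and their part in the differences was not tested. Of 7 markers of the proximal S1 and S2 segments, 6 were called higher, their median ratio was 3.66 and their ratios ranged from 1.70 to 7.06. The summed value was 3201 and 12518, and *Slc34a1*, *Slc5a2* and *Slc4a4* of the list above are among these markers. Of 5 S3 markers, 2 were called higher and none lower, and the summed value was 1104 and 2130. Their ratios ranged from 0.809 for *Slc5a1* (89.5 and 72.4), the only one below 1, to 13.1 for *Slc7a13* (40.7 and 534). Of the 4 compared thick ascending limb markers, 3 were called higher, with a median ratio of 2.28 and a summed value over all 5 listed of 1966 and 3286. Endothelium, which also carries *Car4* in several organs, had 0 of 6 markers called and summed values of 388 and 403.

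Collecting duct markers differed less. None of 7 principal cell markers was called, with a median ratio of 1.29 and a summed value of 355 and 462, beside a ratio of 2.31 for *Car12*. The median ratio of the thick ascending limb markers was 2.28, and the part of either cell type in the *Car12* ratio was not tested. Of the 11 compared intercalated cell markers, 2 were called higher, the median ratio was 1.26 and the summed value over the 12 listed was 382 and 531, beside a ratio of 1.28 for *Car2*. *Slc4a1*, *Insrr*, *Slc26a4* and *Slc4a9*, described next, are among these markers. *Foxi1*, the transcription factor that defines these cells, stood at 27.6 and 29.3. The *Car2* ratio was thus close to the median ratio of these markers, and their part in it was not tested. Macrophages, which use *Car2* too, had 5 of 6 markers called lower and a summed value of 152 and 64.3.

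Genes of bicarbonate and ammonia transport in the collecting duct were mixed. Of 14 listed genes 11 were compared, 3 were called higher and none lower, with a median log2 fold change of 0.49. *Slc4a1*, the chloride-bicarbonate exchanger of acid-secreting intercalated cells and of red cells, stood at 11.5 and 51.3 (ratio 4.45). The ammonia channel *Rhcg* stood at 32.6 and 85.1 (ratio 2.61), and *Insrr*, an alkali-sensing receptor of base-secreting cells, at 13.9 and 37.7 (ratio 2.72). These 3 were the ones called. *Rhbg*, a second ammonia channel, stood at 13.9 and 27.8 and was not called. The base-secreting exchanger *Slc26a4* stood at 47.6 and 74.4 (ratio 1.57), *Slc12a7* at 106 and 149 (ratio 1.41) and *Slc4a9* at 86.8 and 104 (ratio 1.20). *Slc4a2* (54.7 and 53.7), *Adgrf5* (136 and 124), *Slc4a7* (18.9 and 16.0) and *Slc4a8* (11.9 and 8.39) had ratios below 1. *Slc26a7* (2.03 and 3.62), *Kcnn4* (0.566 and 0.211) and *Adcy10* (0.236 and 0.242) were below the level for comparison.

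Ubiquitous proton pump subunits differed little, and those of intercalated cells were mixed. Of 16 ubiquitous subunits of the vacuolar pump none was called, their ratios lay between 0.557 and 1.55, and *Atp6v1a* was the highest at 472 and 551. Their median log2 fold change of 0.24 became -0.033 with equal column totals. Among 6 listed genes of the intercalated cell pumps, the median log2 fold change was 0.48. The most read of them was *Atp6v0a4* at 345 and 379 (ratio 1.10). *Atp4a*, the catalytic subunit of a proton-potassium pump, was the only one called, at 7.12 and 35.6 (ratio 4.99). *Atp6v1b1*, the intercalated cell form of a pump subunit, stood at 43.0 and 84.9 (ratio 1.97).

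Ammonia synthesis, the other arm of proximal acid handling, went partly the other way. Of its 7 genes, 1 was called higher and 1 lower, with a median log2 fold change of -0.54. The glutamine carrier *Slc38a3* was called lower at 209 and 91.3 (ratio 0.436). Glutamate dehydrogenase *Glud1* stood at 708 and 448 (ratio 0.633), and *Pck1*, which turns the carbon skeleton towards glucose, at 2438 and 1682 (ratio 0.690). The amino acid exchanger *Slc7a8* was called higher at 129 and 327 (ratio 2.54). *Ogdh* stood at 383 and 603 (ratio 1.57) and *Slc25a11* at 81.1 and 140.3 (ratio 1.73). In TG+AKI, *Slc38a3*, *Glud1* and *Pck1* thus had lower values where *Car4* and *Car14* had higher ones.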

How the data were processed

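Messenger RNA of 1 WT+AKI and 1 TG+AKI library was sequenced after preparation with a stranded kit (TruSeq). Per the study's methods, STAR 2.7.3a aligned the reads, HTSeq assigned them to genes, and DESeq2 was used for normalization. The processing notes of the submitters name the build mm10 and also list edgeR, Cufflinks 2.2.1 and FastQC. The annotation used for counting and its strand setting are not given in the sources used here.

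The deposited signal values are read counts per gene that the authors scaled by 1 factor per library. In both libraries 100% of the values were whole multiples (within 0.01 reads) of the smallest one, and reads were recovered by division. Every row had at least 1 read in both libraries, so a gene read in only 1 of them has no row. The level of 10 corresponds to 424 and 331 reads (WT+AKI first), and the floor of 3 reads to 0.0708 and 0.0906.

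With 1 library per group no test of the genotypes was possible. Calls followed the 2-fold rule on the log2(value + 1) scale. Ratios are of the values themselves. The exact binomial test was two-sided with Benjamini-Hochberg adjustment at 0.05 and called 8291 of the 10294 genes. The text names all 10 members and the other listed family genes, *Inmt*, all listed members of the lists for proximal bicarbonate, collecting duct transport, ammonia synthesis, fat, muscle and red cells, the highest and the called proton pump genes, and defining markers. A few listed genes are not reported here by name, though list counts, medians and sums include those with a row. The members and lists were chosen with earlier results of these data known. *Gpr116*, an older name of *Adgrf5*, and *Atp12a* had no row. Genes were matched by symbol, and GENCODE M21 gave positions, lengths and shared 100-base words. Protein sequences were not used here.

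Alternatives were pseudocounts of 0.1 and 10, scaling to equal totals, to a median ratio of 1 (among genes with 100 or more in each library) or by median-of-ratios size factors, minimum values of 0, 1 and 50, the addition of the binomial test, and the mean length of coding transcripts. Procedures were tested on simulated Poisson counts with known scaling. Such counts hold counting error only, so spread between animals and errors of scaling were not covered. Software was matplotlib 3.10.9, pandas 2.3.3, scipy 1.17.1 and numpy 2.4.6 under Python 3.11.15.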

Additional observations from a re-analysis of the deposited data

How the results depend on the processing

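The members called higher numbered 3 or 4, and the member called lower 1 or 0, under all 9 alternatives to the calling rule. With the pseudocounts, scalings and binomial test, 8 members were compared. There, 3.58% to 6.07% of all compared genes were called higher and 3.96% to 10.8% lower. Without a filter, 4 of 10 members were higher against 3.95% of 19829 genes. With a minimum value of 1, 4 of 10 were, against 5.23% of 14997. With a minimum value of 50, 3 of 6 were, against 8.56% of 4369. Shares of all genes lower were 5.80%, 7.67% and 6.75% in this order. *Car13* was no longer called lower with a pseudocount of 10 or with a minimum value of 50 (0 members lower each), the latter because its value is under 50. *Car12* was lost with equal totals, and *Car3* with a minimum value of 50, which it does not reach. Over all genes, 372 were called higher and 408 lower with a pseudocount of 10, and 369 and 1110 with equal totals. A minimum value of 50 gave 374 and 295. No filter and a minimum value of 1 both gave 784 higher and 1150 lower. With equal totals, median log2 fold changes were 0.56 for proximal bicarbonate genes, 0.21 for collecting duct transport, -0.81 for ammonia synthesis, 0.22 for intercalated cell pump genes and -0.033, a change of sign, for ubiquitous pump subunits. With a median ratio of 1 they were 0.69, 0.34, -0.68, 0.34 and 0.097 in this order. Each of these scalings multiplies every ratio by 1 number. The ammonia synthesis median was -0.52 with median-of-ratios size factors, that of the intercalated cell pump genes 0.33 with a pseudocount of 10, and that of collecting duct transport 0.37 without a filter and 0.55 with a minimum value of 1, where other genes enter. With the mean length of coding transcripts, the cytosolic share was 58.3% and 41.6% and the cell-surface share 34.5% and 54.8%. Of the 13 family genes, 8 moved by more than counting error with equal totals, 7 with a pseudocount of 10, 6 with a median ratio of 1, 2 with a pseudocount of 0.1 and none with median-of-ratios size factors. No member with an interval that excludes 1 changed direction under these. No paired analysis was possible because each group holds 1 library. Depth limits *Car11*, with 77 and 60 reads.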
